A study of Mus musculus with 27 samples.

Results

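The 39 genes described here encode the nuclear parts of the mouse respiratory chain downstream of complex I, together with ATP synthase and cytochrome c. They were taken by gene symbol from a list of 4 subunits of complex II, 9 of complex III, cytochrome c, 10 subunits of complex IV and 15 of ATP synthase, which is also called complex V. All 39 were found among the 45195 genes of the raw count table, and all 39 passed the filter on low counts in every comparison. Older names of the ATP synthase genes, such as Atp5b, are kept as the files give them.

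Complex II oxidises succinate and is part of the citric acid cycle as well as of the electron transport chain. Complex III passes the electrons to cytochrome c, complex IV hands them to oxygen, and ATP synthase uses the proton gradient that the chain builds to make ATP. In neurogenesis, neural stem cells are commonly described as relying more on glycolysis and fatty acid oxidation, and neurons as relying more on oxidative phosphorylation.

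The series compared stages of adult neurogenesis in male mice of 8 to 12 weeks on a C57BL/6 background. The subventricular zone (SVZ) gave neural stem cells, abbreviated NSC, and early neuroblasts, ENB. The olfactory bulb (OB) gave late neuroblasts, LNB, and the neurons. All animals with a tagged ribosome carried the RiboTag allele Rpl22.HA, which puts an HA tag on a ribosomal protein after Cre recombination, and an eYFP reporter. Recombination was induced by oral tamoxifen at 200 mg/kg, through Tlx-CreER in the TiCRY line for NSC and through Dcx-CreER in the DiCRY line for ENB and LNB. The names of the Neuron libraries carry another prefix, Dxc, and a tag of 4 weeks, those of the NSC ribosome-bound libraries a tag of 4 days, and those of ENB and LNB ribosome-bound libraries a tag of 3 days. Total mRNA came from 200 to 500 sorted eYFP+ cells of 1 to 2 mice per library, with 3 libraries at each stage. Ribosome-bound mRNA came from an anti-HA immunoprecipitate of whole tissue, with 2 NSC, 2 ENB, 3 LNB and 2 Neuron libraries. The same immunoprecipitation without an HA tag gave 3 SVZ and 3 OB control libraries, and shows what sticks to the beads from every cell of the tissue. Names give the SVZ controls as TICRY or Cre- and the OB controls as DICRY or, for control 3, with the prefix Dxc. Their cell type label is Mix. SVZ control 1 has a tag of 4 days, and SVZ controls 2 and 3 have none. OB controls 1 and 2 have a tag of 3 days and OB control 3 one of 4 weeks, so time is mixed within the controls. ENB and LNB ribosome-bound replicates 1 and 2 come from the same animals, by their names, and so do 2 pairs of ENB and LNB total libraries. The Neuron ribosome-bound libraries are named as such, but another of their labels calls them total mRNA and their protocol text is that of sorted cells. The labels do not say for each replicate that it came from its own animals, so p-values measure the spread between these libraries, some of which may be technical.

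Libraries held between 5225929 and 15994635 raw counts in total mRNA, between 6325479 and 13316334 in ribosome-bound mRNA and between 5960357 and 9120659 in no-HA controls. Replicates correlated with Spearman's rho of 0.85 to 0.986 over 24 pairs. Among the total libraries, those with the second index ACTGCATA had 3.08% to 10.5% of their counts on 2 ribosomal RNA loci, and those with GTAAGGAG 0.171% to 0.921%. All 3 Neuron total libraries carry the index ACTGCATA. Immunoprecipitates also differ by index, with AGAGTAGA in both NSC libraries, 1 ENB library and SVZ control 1, TATCCTCT in the other ENB library, all LNB libraries and OB controls 1 and 2, and ACTGCATA or GTAAGGAG in the Neuron libraries and the other controls. Neuron and LNB ribosome-bound libraries share no index, so index and stage cannot be told apart there. Summed markers of neural stem cells lay at 4527 to 4865 TPM (transcript abundance per length, scaled to the same sum in each library) in NSC total libraries, those of neuroblasts at 4906 to 5443 TPM in ENB, and those of mature neurons at 3476 to 6490 TPM in Neuron libraries. LNB total libraries were uneven, with neuroblast markers at 2127 to 5120 TPM and stem cell markers, several of which astrocytes share, at 742 to 8219 TPM. Ribosome-bound libraries held markers of untagged cells. Oligodendrocyte markers summed to 8907 and 10519 TPM in ENB immunoprecipitates, against 6188 to 8898 TPM in SVZ controls, while neuroblast markers summed to 639 and 1010 TPM in ENB immunoprecipitates, against 162 to 220 TPM in SVZ controls. The part of these cells in the results below was not tested.

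Per length, ATP synthase and complex IV subunits led the levels. Averaged over the 10 group means, Atp5b, the catalytic beta subunit of ATP synthase, was the highest member at 2024 TPM, but the order differed between groups. Atp5b was first in every total mRNA group and in LNB and Neuron immunoprecipitates, at 4137 ± 313 TPM in neurons (SD, n = 2), and Cox8a was first in NSC and ENB immunoprecipitates and in both controls, at 2611 ± 117 TPM in NSC (SD, n = 2). In the same average Cox8a followed at 1786 TPM, Cox4i1 at 1502 TPM, Cox6b1 at 1347 TPM and Cox6a1 at 1215 TPM, all of them nuclear subunits of complex IV. The highest complex III mRNA was Uqcr11 at 789.5 TPM, and the highest of complex II was Sdhb, the iron-sulfur subunit, at 362.1 TPM. Complex II subunits and cytochrome c lay at the low end, with Sdhd at 150.6 TPM, Sdhc at 117.9 TPM and Cycs at 71.88 TPM. TPM values come from another count of the reads than the CPM values used in the tests, and they are relative to all transcripts of a library.

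Summed over the 39 members, ribosome-bound mRNA held 27573 and 28918 TPM in NSC, 16104 and 16169 TPM in ENB, 27621, 32242 and 34559 TPM in LNB, and 44892 and 50198 TPM in neurons. ENB libraries were lowest and Neuron libraries highest, with no overlap to other stages. In total mRNA the sums were 20269 to 27923 TPM in NSC, 17885 to 21097 TPM in ENB, 19447 to 25034 TPM in LNB and 29623 to 31537 TPM in neurons. The first 3 stages overlapped in TPM, and Neuron libraries lay above all others. As a share of raw counts, Neuron total libraries overlapped those of NSC. The members held 1.13%, 1.17% and 1.19% of raw counts in neurons, against 1.09%, 0.925% and 1.26% in NSC. The no-HA controls summed to 16159 to 24224 TPM in SVZ and 16709 to 21761 TPM in OB, so the ENB immunoprecipitates lay at the low end of their own controls. In bulk libraries, fewer cells of a type and less RNA per cell cannot be told apart.

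**Figure D1:**
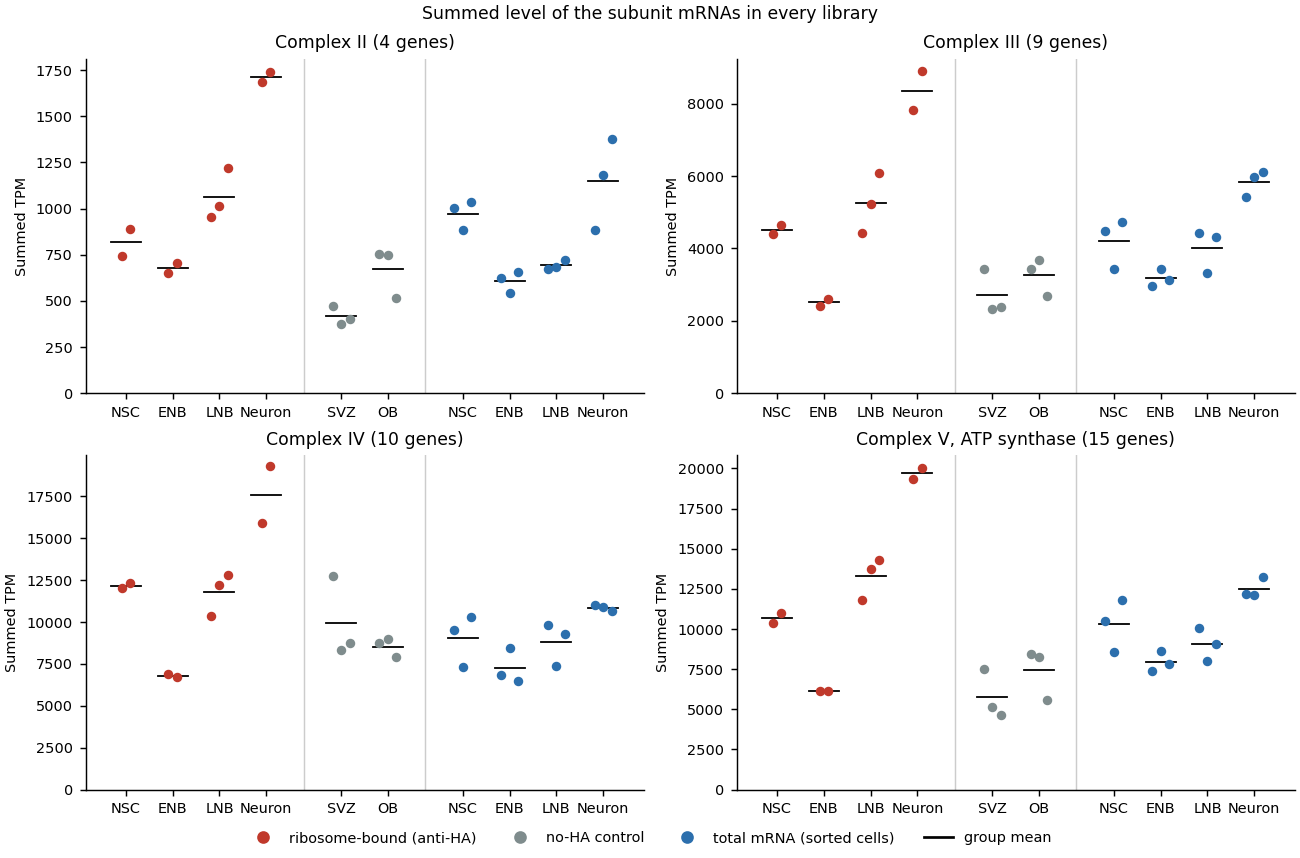
Summed TPM of the subunit mRNAs of each complex (vertical axes, from 0) in every library, by stage and kind of library (horizontal axes), with each point a library and each bar a group mean. In all 4 panels the Neuron ribosome-bound libraries are highest, and the ENB ribosome-bound libraries are the lowest of the ribosome-bound ones.

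In sorted ENB, most members lay slightly below NSC, and 2 fell. In ENB against NSC total mRNA, 2 of the 39 members fell and 0 rose, where 10.1% of the 17592 genes tested were called, 5.12% lower and 4.95% higher. Sdha, the flavoprotein subunit of complex II (ENSMUSG00000021577, chr13:74322255-74350240 in GRCm38.p6), had 244, 187 and 215 CPM in ENB, against 393, 384 and 505 CPM in NSC. CPM here is a count scaled to library size with TMM factors. The groups did not overlap, with a log2 change of -0.99 (SE 0.26, adjusted p = 0.035 by the quasi-likelihood test of edgeR, adjusted after Benjamini and Hochberg over all genes). Cycs, the soluble electron carrier cytochrome c (ENSMUSG00000063694, chr6:50562563-50566569), had 56.5, 58.3 and 51.2 CPM in ENB, against 98.9, 87.2 and 99.6 CPM in NSC. Its log2 change was -0.78 (SE 0.21, adjusted p = 0.033). The median change of the members was -0.25, with 33 of 39 below 0, beside -0.01 over all genes. Without any 1 of the 6 libraries of this comparison, 0 members were called, and with a term for the second index 0 were called. Within libraries of the same index the median differences were -0.23 (ACTGCATA, 2 ENB and 1 NSC) and -0.16 (GTAAGGAG, 1 ENB and 2 NSC).

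Between LNB and ENB, no member of the total mRNA was called. In LNB against ENB total mRNA, 0 of 39 members passed by edgeR, where 3.77% of all genes did, 2.80% higher and 0.966% lower, and DESeq2 called 0 as well. At an unadjusted p under 0.05, 3 members were higher in LNB and 0 lower. The median change was 0.24, with 34 of 39 above 0, beside 0.05 over all genes. Within the same index the medians were -0.02 (ACTGCATA, 1 LNB and 2 ENB) and 0.28 (GTAAGGAG, 2 LNB and 1 ENB), so the direction was not shared by both. The same LNB library, of index ACTGCATA, had stem cell markers at 742 TPM and neuroblast markers at 5120 TPM, where the others had 5328 and 8219 TPM and 3416 and 2127 TPM, so index and cell makeup cannot be told apart.

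Between sorted neurons and LNB 4 members were called, in both directions. In Neuron against LNB total mRNA, 3 members rose and 1 fell, where 5.33% of all genes rose and 9.34% fell. Sdha had 399, 703 and 863 CPM in neurons, against 283, 239 and 272 CPM in LNB (log2 change 1.31, SE 0.26, adjusted p = 0.0069). Cycs had 116, 106 and 151 CPM in neurons, against 70.4, 54.7 and 71.2 CPM in LNB (log2 change 0.93, SE 0.21, adjusted p = 0.011). Both genes were thus higher in every neuron library than in any LNB library. Atp5b (ENSMUSG00000025393, chr10:128083307-128090388) had 1767, 2124 and 2275 CPM in neurons, against 1300, 1112 and 1266 CPM in LNB, with a log2 change of 0.75 (SE 0.18, adjusted p = 0.017). These 3 genes were called in each fit without 1 of the libraries. Atp5g2, which encodes the proton-carrying c-ring subunit of ATP synthase (ENSMUSG00000062683, chr15:102662868-102671047), had 26.8, 40.4 and 35.2 CPM in neurons, against 84, 56 and 73 CPM in LNB. Its log2 change was -1.06 (SE 0.27, adjusted p = 0.022), against -0.53 (adjusted p = 0.12) with the authors' expected counts and -0.80 (adjusted p = 0.096) with a term for the second index. The median of the members was -0.02 and that of all genes -0.18, but with size factors in place of TMM they were 0.14 and -0.01. Relative to all genes the members' median was thus 0.16 or 0.15 higher in neurons. Within the index ACTGCATA, with 3 Neuron libraries and 1 LNB library, the median difference was 0.41. Mature neuron markers, which also separate the groups, summed to 3476 to 6490 TPM in Neuron libraries and 322 to 745 TPM in LNB libraries. Oligodendrocyte markers summed to 1142, 3804 and 5608 TPM in Neuron libraries 1, 2 and 3, the order of their Sdha values, against 966 to 1752 TPM in LNB, and stem cell markers to 2265, 3811 and 1116 TPM in neurons, against 5328, 742 and 8219 TPM in LNB. Their part in the result was not tested.

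Across the whole course, Neuron against NSC total mRNA, 1 member rose and 2 fell, where 11.0% of all genes rose and 12.8% fell. Cyc1, the cytochrome c1 subunit of complex III (ENSMUSG00000022551, chr15:76343513-76346260), had 316, 298 and 350 CPM in neurons, against 176, 230 and 231 CPM in NSC (log2 change 0.60, SE 0.20, adjusted p = 0.047). Atp5e, the small epsilon subunit of the F1 part of ATP synthase (ENSMUSG00000016252, chr2:174461075-174464101), had 95.8, 62.2 and 56.4 CPM in neurons, against 136, 149 and 165 CPM in NSC (log2 change -1.07, SE 0.30, adjusted p = 0.023). Atp5g2 had the same 26.8, 40.4 and 35.2 CPM in neurons, against 91, 107 and 112 CPM in NSC (log2 change -1.60, SE 0.27, adjusted p = 0.0015). It was the only member called in each fit without 1 library. With a term for the second index Atp5g2 kept its call (adjusted p = 0.0059), while Atp5e was at -0.76 (adjusted p = 0.088) and Cyc1 at 0.61 (adjusted p = 0.096), and with expected counts these were at -0.89 (adjusted p = 0.053) and 0.52 (adjusted p = 0.09). Without NSC library 1, 2 or 3 or Neuron library 2 or 3, the count was 1. Within the index ACTGCATA, with 3 Neuron libraries and 1 NSC library, the median difference was 0.13, beside a fitted median of -0.06. Neuron against NSC and Neuron against LNB share the Neuron libraries.

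In the fit of ribosome-bound counts all subunits lay lower in ENB than in NSC, and 19 were called. In TPM, Sdha was the exception, with 238 and 226 TPM in ENB, against 193 and 233 TPM in NSC. Set against the SVZ no-HA control, the members had a median of -0.62 in the ENB immunoprecipitate, where 1.52% of all genes were called. As a set their share of the library was thus not above that in the control. By transcript length, the 19 shorter members had a median of -1.0 there and the 20 longer ones 0.04. Counts are scaled to each library, so they do not give the amount of RNA on the beads. In ENB against NSC ribosome-bound mRNA, 19 of 39 members fell and 0 rose, where 8.28% of the 19066 genes tested were called, 4.85% lower and 3.44% higher. The median log2 change was -0.95, all 39 lay below 0, and the median over all genes was 0.02. Transcripts under 0.5 of the median gene's length, which 31 of the 39 members have, lay lower as a class. Their median difference of group mean log2 CPM was -0.50 over 2530 genes, against 0.09 over the longer ones. Calls came from 5 of 9 complex III genes, 5 of 10 of complex IV and 9 of 15 of ATP synthase, and from 0 of 4 in complex II, where the median was -0.39.

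Within ATP synthase, Atp5e had the largest decrease, with 32.6 and 30.1 CPM in ENB, against 94.8 and 123 CPM in NSC (log2 change -1.80, SE 0.34, adjusted p = 0.0064). Atp5g2 had 39.1 and 43.5 CPM in ENB, against 116 and 117 CPM in NSC (log2 change -1.49, SE 0.30, adjusted p = 0.0073). Atp5g3, a second c-ring gene (ENSMUSG00000018770, chr2:73908447-73912464), had 119 and 113 CPM in ENB, against 255 and 283 CPM in NSC (log2 change -1.21, SE 0.36, adjusted p = 0.046). None of the 3 overlapped between the groups. Atp5l, the g subunit of the membrane part (ENSMUSG00000038717, chr9:44913248-44920742), had 12.5 and 10.7 CPM in ENB, against 28.9 and 29.5 CPM in NSC (log2 change -1.33, SE 0.31, adjusted p = 0.016). Its raw counts were 13.9% of the authors' expected counts, against a median of 56.4% over the members, so many of its reads may be shared with copies of the gene and its level is uncertain. Atp5g2 at 31.7% and Cycs at 38.0% were also below 40%. The other called members of ATP synthase were Atp5o, which forms the link between stalk and head, the stalk subunits Atp5h and Atp5j, the membrane subunit Atp5j2 and the F1 delta subunit Atp5d, with log2 changes of -1.05 to -0.96.

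In complex III, Uqcrb (ENSMUSG00000021520, chr13:66900576-66905350), a small subunit near the quinone site, had 52.8 and 57.5 CPM in ENB, against 92.3 and 159 CPM in NSC (log2 change -1.19, SE 0.32, adjusted p = 0.031). Uqcrh, which encodes the hinge protein between cytochromes c1 and c, had 80.7 and 122 CPM in ENB, against 221 and 227 CPM in NSC (log2 change -1.14, SE 0.28, adjusted p = 0.021). The ENB values lay below both NSC values for each. The small subunits Uqcrq, Uqcr11 and Uqcr10 fell by 1.03, 1.03 and 0.98 on the log2 scale. In complex IV, Cox7b had 86.4 and 93.1 CPM in ENB, against 183 and 195 CPM in NSC (log2 change -1.07, SE 0.27, adjusted p = 0.023). Cox4i1, the regulatory subunit 4 and the complex IV member with the highest CPM here, had 385 and 442 CPM in ENB, against 880 and 837 CPM in NSC (log2 change -1.05, SE 0.29, adjusted p = 0.036). Cox6c, Cox6b1 and Cox8a fell by 1.05, 0.94 and 0.92. Leaving out 1 library lowered the count of 19 to 7 without NSC library 1, 2 without NSC library 2, 0 without ENB library 1 and 2 without ENB library 2, with medians of -1.07 to -0.74. Within the index AGAGTAGA, with 1 ENB and 2 NSC libraries, the median difference was -0.83. ENB immunoprecipitates also carried more oligodendrocyte marker RNA, 8907 and 10519 TPM, against 3458 and 3931 TPM in NSC immunoprecipitates, and less neural stem cell marker RNA, 894 and 960 TPM, against 2879 and 3590 TPM.

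The direction was the opposite between LNB and ENB. The ENB libraries are the same, with a members' median of -0.62 against their no-HA control. As shares of a library, ENB values as a set were thus not above those of that control. In LNB against ENB ribosome-bound mRNA, 19 members rose and 0 fell, where 6.81% of all genes rose and 6.05% fell. The median log2 change was 0.88 and all 39 members were above 0. The median over all genes was 0.08, and -0.06 with size factors in place of TMM, which gave 11 calls and a members' median of 0.74. The members' median thus lay 0.80 above that of all genes under both scalings. Complex III gave 5 calls of 9, complex IV 6 of 10, ATP synthase 7 of 15 and complex II 0 of 4, and cytochrome c was called.

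Cox5a, a matrix-facing subunit of complex IV (ENSMUSG00000000088, chr9:57517328-57532427), had 290, 336 and 310 CPM in LNB, against 105 and 94.1 CPM in ENB (log2 change 1.65, SE 0.37, adjusted p = 0.0072). Uqcrb had 152, 181 and 183 CPM in LNB, against 52.8 and 57.5 CPM in ENB (log2 change 1.64, SE 0.30, adjusted p = 0.0016). Atp5e had 76.7, 113 and 91.1 CPM in LNB, against 32.6 and 30.1 CPM in ENB (log2 change 1.58, SE 0.32, adjusted p = 0.0038). Every LNB library was above both ENB libraries for the 3 genes. Atp5l had 27.9, 41.3 and 33.1 CPM in LNB, against 12.5 and 10.7 CPM in ENB (log2 change 1.55, SE 0.29, adjusted p = 0.0018). Atp5g3 had 274, 364 and 260 CPM in LNB, against 119 and 113 CPM in ENB (log2 change 1.37, SE 0.34, adjusted p = 0.013). Cycs had 117, 129 and 145 CPM in LNB, against 55.6 and 56.4 CPM in ENB (log2 change 1.22, SE 0.25, adjusted p = 0.0034).

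The next by size were Atp5h and Uqcrq, with increases of 1.04 and 1.03. The other called members rose by 0.76 for Atp5j to 1.01 for Cox7a2 and Atp5o, with Cox5b, Cox7c, Atp5g2, Uqcrh, Cox7b, Uqcr10, Cyc1 and Cox6c between them. Of the 19 members called here, 13 were also among the 19 that fell between ENB and NSC, which is 68.4% of each list. Both comparisons use the same 2 ENB libraries, so their values are given side by side and not as 2 separate lines of support. The count was 5 without ENB library 1, 6 without ENB library 2, 14, 8 and 9 without LNB library 1, 2 and 3, and Atp5e, Atp5l, Uqcrb and Cycs were called in each of these fits. Replicates 1 and 2 of both stages share animals, and with the animal as a block 7 members were called and the median was 0.85. They were Cox5a, Uqcrb, Atp5e, Atp5l, Atp5g3, Cycs and Cyc1. Within the index TATCCTCT, with 3 LNB libraries and 1 ENB library, the median difference was 0.90. SVZ and OB tissue differ in what the beads retain. Oligodendrocyte markers summed to 901 to 1262 TPM in LNB immunoprecipitates, against 8907 and 10519 TPM in ENB, and mature neuron markers to 4338 to 4526 TPM in LNB, against 1454 and 1729 TPM in ENB.

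Between neurons and LNB the ribosome-bound mRNAs lay higher again, with few calls. In Neuron against LNB ribosome-bound mRNA, 3 members rose and 0 fell, where 4.13% of all genes were called, 0.378% higher and 3.75% lower. All 39 members were above 0, with a median of 0.59 beside -0.14 over all genes. Atp5l had 62.3 and 91.4 CPM in neurons, against 27.9, 41.3 and 33.1 CPM in LNB (log2 change 1.17, SE 0.26, adjusted p = 0.019). Uqcrb had 303 and 409 CPM in neurons, against 152, 181 and 183 CPM in LNB (log2 change 1.05, SE 0.28, adjusted p = 0.042). Atp5j, the coupling factor 6 of the stalk (ENSMUSG00000022890, chr16:84827871-84835857), had 455 and 547 CPM in neurons, against 275, 301 and 308 CPM in LNB (log2 change 0.77, SE 0.19, adjusted p = 0.035). The groups did not overlap for these 3. Atp5b, at 3547 and 2648 CPM in neurons, against 2411, 2664 and 2422 CPM in LNB, overlapped between the groups (log2 change 0.31, SE 0.32, adjusted p = 0.68). The count was 0 without LNB library 1 or 3 or Neuron library 2, 1 without LNB library 2 and 6 without Neuron library 1, and DESeq2 called 17 members. Endothelial, microglial and oligodendrocyte markers were all lower in Neuron than in LNB immunoprecipitates, with oligodendrocyte markers at 289 and 547 TPM in neurons, against 901 to 1262 TPM in LNB. Neuroblast markers were lower too, at 919 and 1185 TPM, against 1764 to 2407 TPM in LNB. Mature neuron markers were higher, at 8047 and 8487 TPM in neurons, against 4338 to 4526 TPM in LNB. The part of these differences in the result was not tested.

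**Figure D2:**
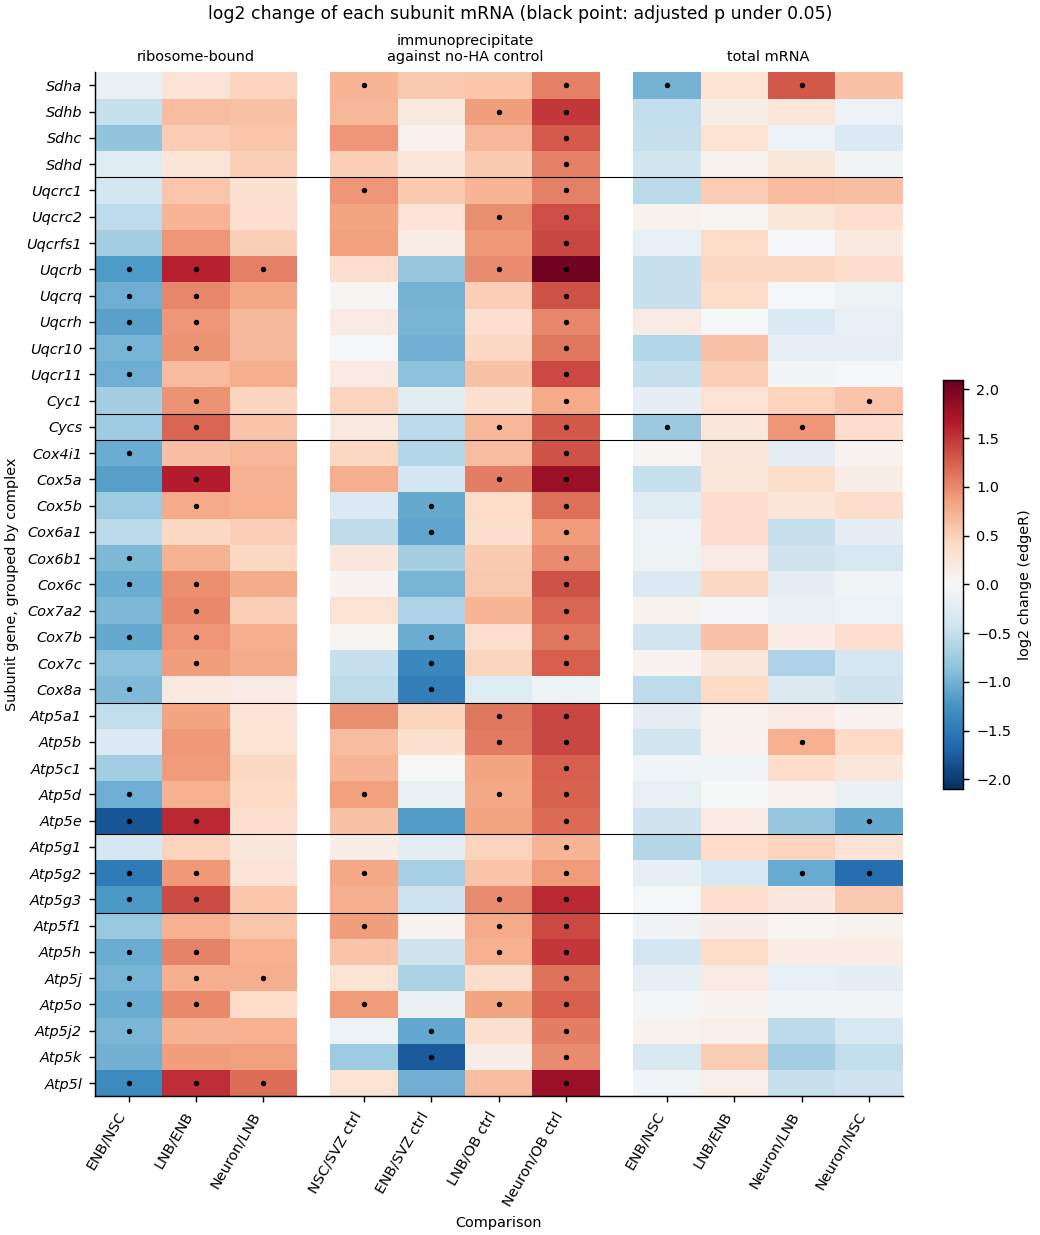
log2 change of the 39 members (rows, grouped by complex) in 11 comparisons (columns), with black points where the adjusted p was under 0.05. The ribosome-bound columns show 19 decreases in ENB against NSC and 19 increases in LNB against ENB, and the Neuron immunoprecipitate against its control shows 38 increases, while the total mRNA columns hold 2, 0, 4 and 3 calls.

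Each immunoprecipitate was also set against the no-HA control of its tissue, which bears on how much of a member's signal was tied to tagged ribosomes. In the Neuron immunoprecipitate against the OB control, 38 of 39 members rose and 0 fell, where 27.4% of all genes were called, 11.6% higher and 15.7% lower. The median was 1.25, beside -0.21 over all genes, and 1.27 between the 1 library of each group with the index GTAAGGAG. Mature neuron markers summed to 8487 and 8047 TPM in Neuron immunoprecipitates, against 2400 to 3542 TPM in OB controls. Stem cell markers summed to 373 and 253 TPM, against 1163 to 2339 TPM in OB controls, and oligodendrocyte markers to 547 and 289 TPM, against 1309 to 2758 TPM in OB controls. Their part in the result was not tested. Uqcrb was first, with 303 and 409 CPM in Neuron immunoprecipitates, against 94.2, 96 and 67.2 CPM in OB controls (log2 change 2.05, SE 0.28, adjusted p = 0.0002). Cox5a had 455 and 581 CPM, against 183, 163 and 96.1 CPM in OB controls (log2 change 1.81, SE 0.34, adjusted p = 0.0018). Atp5l had 62.3 and 91.4 CPM, against 19.5, 22.6 and 23.7 CPM in OB controls (log2 change 1.81, SE 0.26, adjusted p = 0.00033). All 4 complex II genes were among the calls. Sdhb had 448 and 468 CPM in Neuron immunoprecipitates, against 182, 199 and 109 CPM in OB controls (log2 change 1.49, SE 0.28, adjusted p = 0.0017). Atp5b had 3547 and 2648 CPM, against 1442, 1474 and 609 CPM in OB controls (log2 change 1.40, SE 0.32, adjusted p = 0.0056).

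The smallest called increase was that of Atp5g1 at 0.71 (SE 0.23, adjusted p = 0.029). The exception was Cox8a, with 486 and 566 CPM in Neuron immunoprecipitates, against 474, 545 and 679 CPM in OB controls (log2 change -0.10, SE 0.25, adjusted p = 0.79). With 1 library left out the count was 26 to 37, and 25 members were called in each of those fits. OB control library 3 was the lowest control for the F1 genes Atp5a1, Atp5b and Atp5c1, and without it 37 members were called. It is the only OB control with the tag of 4 weeks of the Neuron libraries, and the others have 3 days.

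In the LNB immunoprecipitate against the OB control, 12 members rose and 0 fell, where 10.1% of all genes were called, 7.00% higher and 3.06% lower. The median was 0.64, beside -0.08 over all genes. Atp5a1, the alpha subunit that forms the F1 head with Atp5b (ENSMUSG00000025428, chr18:77773768-77782869), had 1227, 1385 and 1243 CPM in LNB immunoprecipitates, against 765, 763 and 241 CPM in OB controls (log2 change 1.12, SE 0.33, adjusted p = 0.043). Atp5b had 2411, 2664 and 2422 CPM, against 1442, 1474 and 609 CPM in OB controls (log2 change 1.09, SE 0.29, adjusted p = 0.03). The groups stood apart, and OB control library 3 lay far below the other controls for both. That control has a tag of 4 weeks, while the LNB libraries and the other OB controls have 3 days. The part of time was not tested. With size factors 1 member was called and the medians were 0.47 for the members and -0.25 over all genes. The count was 0 without OB control library 3 or LNB library 2 or 3, 1 without LNB library 1, 2 without OB control library 1 and 8 without OB control library 2. Over all genes the calls fell too, from 1918 in the full fit. They were 661 without OB control library 3, and 163 and 95 without LNB library 2 and 3. Within the index TATCCTCT, with 3 LNB libraries and 2 controls, the median difference was 0.55.

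In the NSC immunoprecipitate against the SVZ control, 6 members rose and 0 fell, where 8.75% of all genes rose and 6.59% fell, with a median of 0.44 beside -0.14 over all genes. They were Uqcrc1, a core protein of complex III, with Atp5o, Atp5f1, Atp5d, Atp5g2 and Sdha. Uqcrc1 had 467 and 538 CPM in NSC immunoprecipitates, against 327, 233 and 231 CPM in SVZ controls (log2 change 0.93, SE 0.26, adjusted p = 0.027). SVZ control library 1 was the highest control for 5 of the 6, and without it the count was 17. It was 0 without SVZ control library 2 or 3 or NSC library 2, and 3 without NSC library 1. SVZ control library 1 is the control with the index and the tag of 4 days of the NSC libraries. Against it alone the median difference was 0.07, with 20 members above 0 and 19 below.

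In the ENB immunoprecipitate against the SVZ control the direction differed, with 7 members that fell and 0 that rose, where 0.813% of all genes fell and 0.708% rose. The median was -0.62, beside -0.04 over all genes. Atp5k, the e subunit of the ATP synthase membrane part (ENSMUSG00000050856, chr5:108433246-108434399), had 42.1 and 45.8 CPM in ENB immunoprecipitates, against 188, 148 and 114 CPM in SVZ controls (log2 change -1.77, SE 0.31, adjusted p = 0.0076). Cox8a had 391 and 414 CPM, against 1446, 955 and 932 CPM in SVZ controls (log2 change -1.46, SE 0.26, adjusted p = 0.0077). Cox7c had 75.1 and 76.2 CPM, against 238, 192 and 149 CPM in SVZ controls (log2 change -1.35, SE 0.26, adjusted p = 0.014). The ENB values were below all controls for each. Cox6a1, Atp5j2, Cox5b and Cox7b fell by 1.11, 1.09, 1.07 and 1.04. The count was 0 without either ENB library, 3, 4 and 8 without SVZ control library 1, 2 and 3, and the median lay between -0.73 and -0.29. Between the 1 ENB library and the 1 control with the index AGAGTAGA it was -1.02. Over all genes the calls were 196, 224 and 170 without SVZ control library 1, 2 and 3, against 290 in the full fit. The ENB and NSC immunoprecipitates share the SVZ controls.

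**Figure D3:**
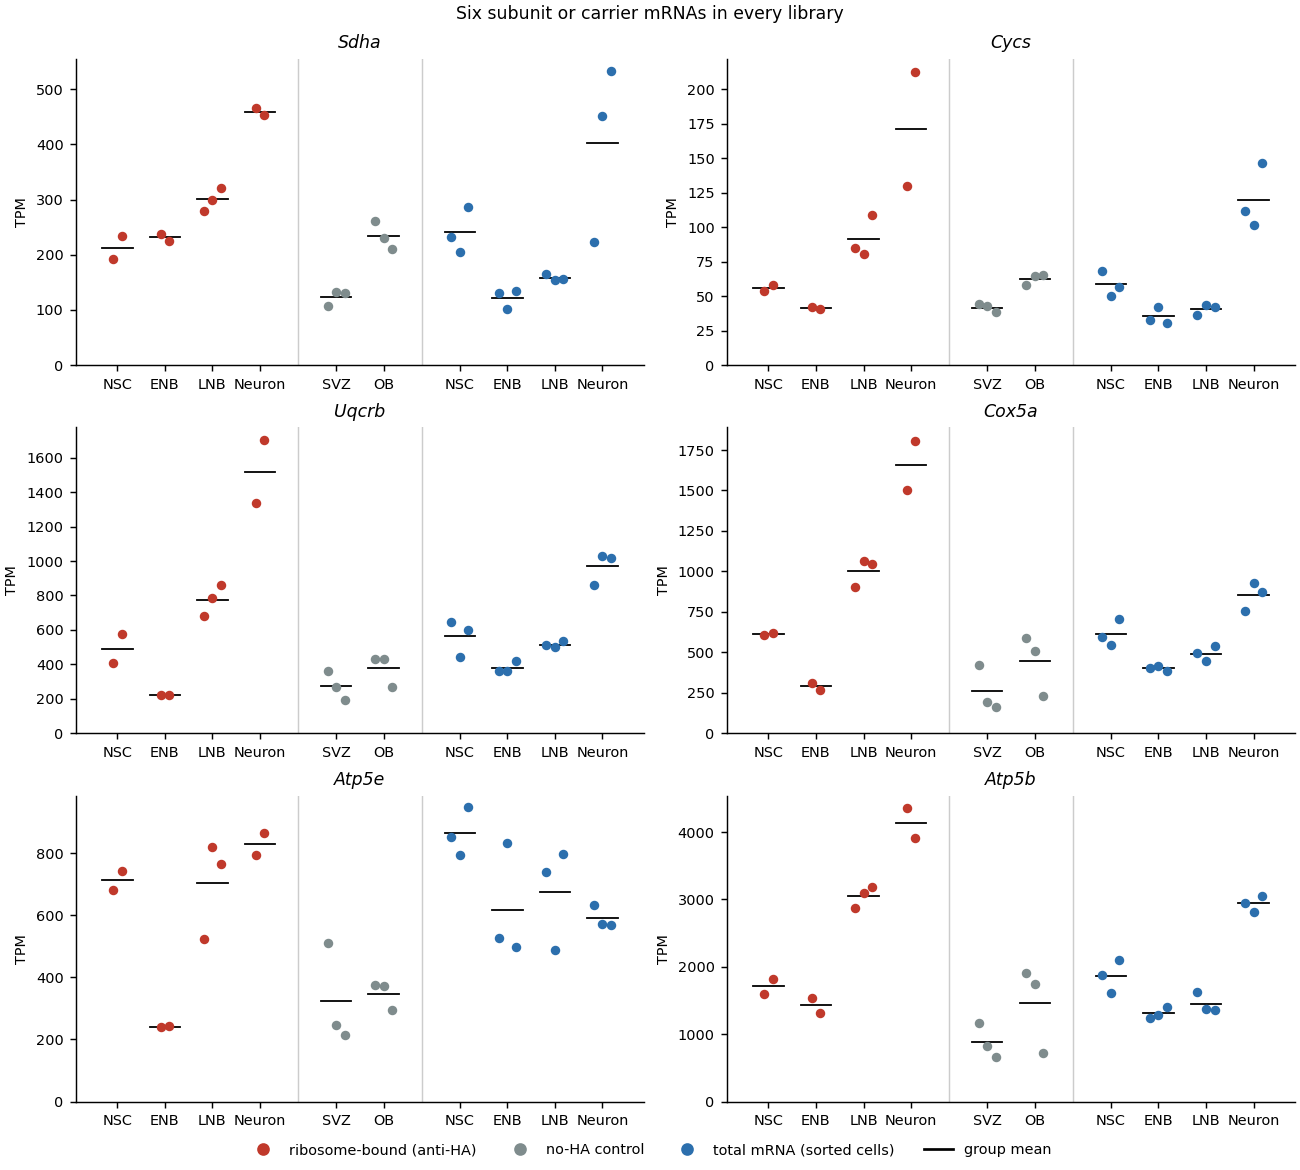
TPM (vertical axes, from 0) of 6 members in every library, by stage and kind of library (horizontal axes), with each point a library and each bar a group mean. For Uqcrb, Cox5a and Atp5e the ENB ribosome-bound libraries lie below those of the other stages, and for Sdha and Cycs the ENB and LNB total libraries lie below those of neurons.

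The difference between ribosome-bound and total mRNA was tested as an interaction term, the log2 change between stages in ribosome-bound mRNA minus that in total mRNA. It compares immunoprecipitates of tissue with sorted cells, so the source of the RNA moves with the kind of library and cannot be told apart from it. For ENB against NSC 0 members were called by edgeR, where 2.81% of 19913 genes were, DESeq2 called 4, and 13 had an unadjusted p under 0.05, 12 of them lower. The median was -0.48, beside 0.20 over all genes.

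For LNB against ENB, 4 members were higher and 0 lower in ribosome-bound relative to total mRNA, where 6.15% of all genes were called, 1.89% higher and 4.26% lower. Cox5a rose by 1.65 in ribosome-bound mRNA, with a total change of 0.26 (SE 0.20, adjusted p = 0.58), and the interaction, from a fit over both kinds of library, was 1.27 (SE 0.28, adjusted p = 0.013). In total mRNA it had 185, 142 and 214 CPM in LNB, against 156, 163 and 132 CPM in ENB, which overlap. Atp5l, Uqcrb and Atp5o had interactions of 1.32 (SE 0.38, adjusted p = 0.047), 1.09 (SE 0.28, adjusted p = 0.03) and 0.85 (SE 0.23, adjusted p = 0.035). Leaving out each of 11 libraries gave 0 to 4 calls. The count was 0 without ENB ribosome-bound library 1, 1 without ENB ribosome-bound library 2 or LNB ribosome-bound library 2 or 3, 4 without LNB total library 2, and 2 without any other. With the shared animals as a block 1 was called, Cox5a, at 1.29 (adjusted p = 0.04).

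For Neuron against LNB, 4 members were higher and 0 lower, where 3.15% of all genes were called, 1.46% higher and 1.69% lower. They were Atp5l at 1.66 (SE 0.37, adjusted p = 0.023), Cox7c at 1.43 (SE 0.34, adjusted p = 0.032), Atp5j2 at 1.30 (SE 0.30, adjusted p = 0.028) and Atp5j at 0.95 (SE 0.22, adjusted p = 0.031). Cox7c had 192 and 283 CPM in neurons, against 123, 141 and 151 CPM in LNB, in ribosome-bound mRNA. In total mRNA it had 196, 144 and 111 CPM in neurons, against 266, 175 and 268 CPM in LNB. With the authors' expected counts or without the filter on low counts 0 of the 4 were called. The count was 0 without LNB total library 1, LNB ribosome-bound library 1 or 3 or Neuron ribosome-bound library 2, 2 without LNB ribosome-bound library 2, Neuron total library 2 or Neuron ribosome-bound library 1, and 4 or 5 without the others.

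The c-ring of ATP synthase is built of copies of the same mature peptide that Atp5g1, Atp5g2 and Atp5g3 encode behind different import signals, and the 3 genes did not share a course in total mRNA. In neurons Atp5g2 had 156, 245 and 250 TPM, against 426, 404 and 440 TPM in NSC. Atp5g3 had 856, 681 and 888 TPM in neurons, against 422, 326 and 619 TPM in NSC, and Atp5g1 had 844, 863 and 815 TPM in neurons, against 718, 474 and 720 TPM in NSC. In TPM every neuron library was thus below every NSC library for Atp5g2 and above them for the others. Of these, the change of Atp5g2 was called and those of Atp5g1 and Atp5g3 were not. In ribosome-bound mRNA Atp5g2 had 533 and 535 TPM in neurons, 346 to 435 TPM in LNB, 174 and 212 TPM in ENB and 606 and 543 TPM in NSC.

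**Figure D4:**
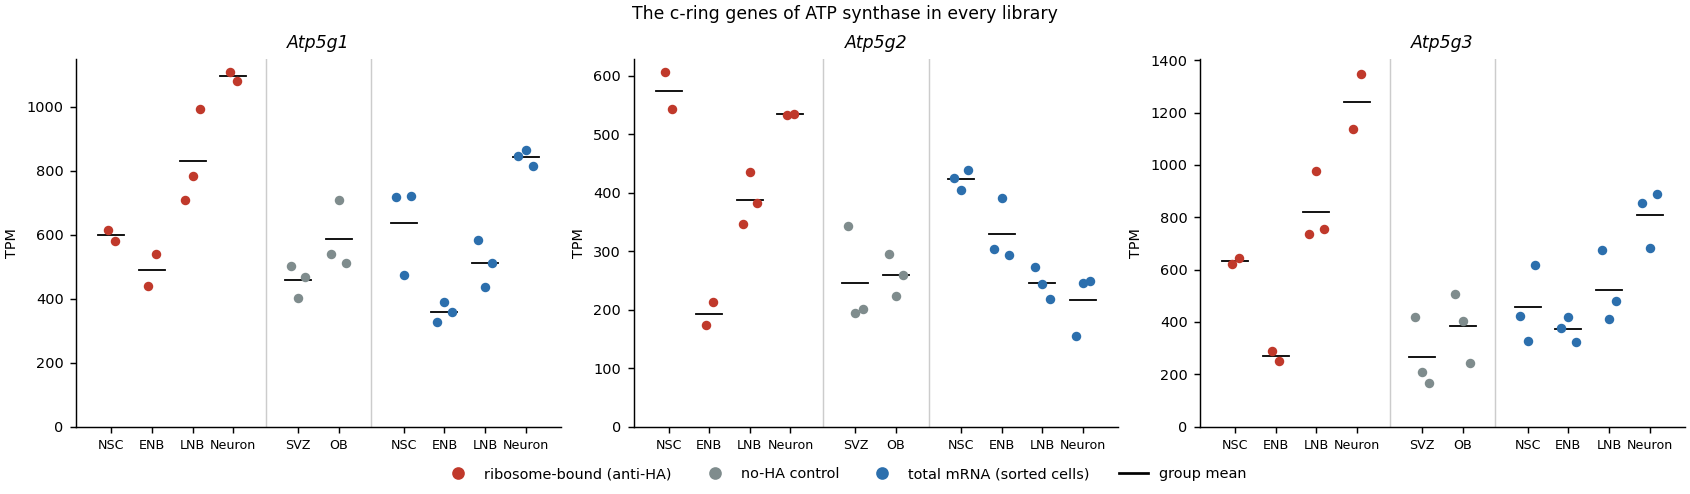
TPM (vertical axes, from 0, with a scale for each gene) of the c-ring genes Atp5g1, Atp5g2 and Atp5g3 in every library, by stage and kind of library (horizontal axes), with each point a library and each bar a group mean. In total mRNA the Neuron libraries are at 156 to 250 TPM for Atp5g2, below NSC at 404 to 440 TPM, and above NSC for the other genes.

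Tissue-specific isoforms of complex IV subunits had low levels in most libraries. Cox4i2, a form of subunit 4 known from lung and from oxygen-sensing cells, had 31.5, 41.1 and 19.0 TPM in NSC total libraries and 30.6 and 25.0 TPM in NSC ribosome-bound libraries. It was listed at 0 in all 3 Neuron total libraries, lay at 0 to 0.93 TPM in ENB and at 0 to 4.35 TPM in LNB. Neuron against NSC was called (adjusted p = 0.013), and with a group at 0 no fold is given. Cox4i1 lay at 1085 to 1305 TPM in the same NSC total libraries. Cox6a2, a muscle form of subunit 6A, lay at 0, 1.46 and 108.6 TPM in NSC total libraries, so 1 library sets its mean, and Cox7a1 stayed at or under 22.8 TPM in all libraries. Cox8b did not exceed 10.6 TPM and Cox8c was listed at 0 in all. Cox7a1 was called in LNB against ENB ribosome-bound mRNA (adjusted p = 0.047), with ENB listed at 0. Some related genes went the other way from the members in total mRNA. Cox7a2l, a subunit 7A relative that joins complexes III and IV into supercomplexes, rose by 1.11 (SE 0.20, adjusted p = 0.0069) in ENB against NSC, and its log2 change was -0.81 (adjusted p = 0.046) in LNB against ENB. Atpif1, the inhibitor of ATP synthase, rose by 0.88 (SE 0.21, adjusted p = 0.021) in ENB against NSC, with a log2 change of -0.96 (adjusted p = 0.01) in Neuron against LNB. Others had the members' direction, such as Ndufa4, counted with complex IV, at 1.46 (SE 0.32, adjusted p = 0.0056) in LNB against ENB ribosome-bound mRNA.

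The log2 change of the members varied with transcript length in several comparisons. Length here is the effective length that the authors' expected counts and TPM imply, relative to the median gene, and it was 0.06 for Atp5k, 0.08 for Atp5e, 1.05 for Sdha and 1.15 for Cycs. Across the 39 members, which share their libraries, Spearman's rho between length and log2 change was 0.83 in the ENB immunoprecipitate against its control, where the 19 shorter members had a median of -1.0 and the 20 longer ones 0.04. It was 0.68 for the NSC immunoprecipitate, 0.42 for that of LNB and 0.13 for that of neurons. Over all genes with a length, here 14733, the difference of group mean log2 CPM was used in place of the fitted change. Its correlation with length was 0.15 for ENB and -0.13 for NSC. The 2530 genes under 0.5 of the median length had a median of -0.29 in the ENB immunoprecipitate, against 0.05 for longer genes. In that of NSC it was 0.12, against -0.07. In ribosome-bound mRNA the members' rho was 0.57 for ENB against NSC (medians -1.01 for shorter and -0.74 for longer members), beside 0.26 over all genes. For LNB against ENB it was -0.26 (0.88 for shorter and 0.86 for longer members), beside -0.04. In Neuron against LNB total mRNA it was 0.60, with medians of -0.20 for shorter and 0.20 for longer members, beside a correlation of 0.06 over all genes. In the interaction of that step it was -0.71, with 0.87 for shorter and 0.36 for longer members, beside -0.14 over all genes, whose short transcripts had a median of 0.29, against -0.15 for longer ones. The part of transcript length in the calls above was not tested.

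**Figure D5:**
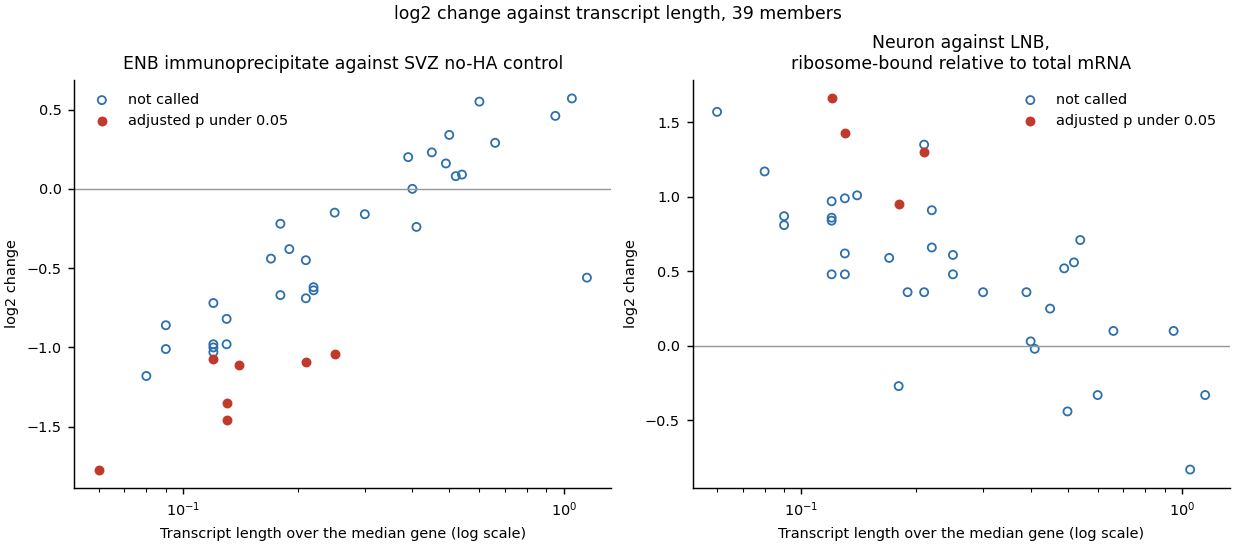
log2 change (vertical axes) against effective transcript length over that of the median gene (horizontal axes, log scale) for the 39 members, as points filled where the adjusted p was under 0.05. The 7 called members of the ENB immunoprecipitate against the SVZ control (left) and the 4 called members of the Neuron against LNB interaction (right) have lengths of at most 0.25.

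RefSeq promoter windows, 250 bases before to 50 after a start on GRCm38.p6, were matched for 31 of the 39 members. NRF1, a transcription factor known to bind promoters of respiratory genes, has the motif GCGCA, any base, GCGC, searched on both strands. It was found in 10 of the 31, or 32.3%, against 5.19% of 27025 genes with a window. Those are all genes with a window, expressed or not, and they were not matched to the members by base composition. The motif CCGGAAG of the GABP factor, also on both strands, was found in 12, or 38.7%, against 9.93%. The YY1 motif was in 1, or 3.23%, against 0.995%. Of the 13 members called in opposite directions in the ENB against NSC and the LNB against ENB ribosome-bound comparisons, 10 have a window, and of these Atp5g2, Atp5g3, Atp5h and Atp5o have an NRF1 match, and their windows are printed for that reason, with that of Sdha, which has 3 matches, the most of any member, and was called in total mRNA but in neither ribosome-bound comparison. Capitals mark the NRF1 matches, which are a match of letters and no evidence of binding. All windows lie on the minus strand and read 5′ to 3′ along the gene, at chr15:102670998-102671297 for Atp5g2, chr2:73911277-73911576 for Atp5g3, chr11:115419870-115420169 for Atp5h, chr16:91931581-91931880 for Atp5o and chr13:74350191-74350490 for Sdha.
Atp5g2: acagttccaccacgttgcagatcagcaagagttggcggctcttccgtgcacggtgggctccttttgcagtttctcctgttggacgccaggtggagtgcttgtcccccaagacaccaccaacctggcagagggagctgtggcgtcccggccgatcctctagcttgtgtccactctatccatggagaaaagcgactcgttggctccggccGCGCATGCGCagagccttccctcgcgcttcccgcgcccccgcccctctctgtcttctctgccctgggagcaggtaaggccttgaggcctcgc
Atp5g3: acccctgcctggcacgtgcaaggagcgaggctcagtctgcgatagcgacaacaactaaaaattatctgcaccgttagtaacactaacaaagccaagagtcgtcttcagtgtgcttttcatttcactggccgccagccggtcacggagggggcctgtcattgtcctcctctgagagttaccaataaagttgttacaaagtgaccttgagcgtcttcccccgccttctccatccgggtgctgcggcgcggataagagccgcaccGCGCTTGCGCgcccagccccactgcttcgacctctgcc
Atp5h: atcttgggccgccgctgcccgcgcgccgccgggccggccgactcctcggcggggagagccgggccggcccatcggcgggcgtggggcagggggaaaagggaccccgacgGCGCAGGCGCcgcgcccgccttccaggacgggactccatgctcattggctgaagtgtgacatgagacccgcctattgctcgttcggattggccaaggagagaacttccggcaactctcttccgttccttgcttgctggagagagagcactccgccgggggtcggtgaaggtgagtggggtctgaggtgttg
Atp5o: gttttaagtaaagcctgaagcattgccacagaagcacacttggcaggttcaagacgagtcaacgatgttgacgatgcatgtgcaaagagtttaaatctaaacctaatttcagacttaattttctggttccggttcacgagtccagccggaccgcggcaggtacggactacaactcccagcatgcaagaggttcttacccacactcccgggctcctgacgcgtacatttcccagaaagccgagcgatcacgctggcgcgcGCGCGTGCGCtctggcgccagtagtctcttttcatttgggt
Sdha: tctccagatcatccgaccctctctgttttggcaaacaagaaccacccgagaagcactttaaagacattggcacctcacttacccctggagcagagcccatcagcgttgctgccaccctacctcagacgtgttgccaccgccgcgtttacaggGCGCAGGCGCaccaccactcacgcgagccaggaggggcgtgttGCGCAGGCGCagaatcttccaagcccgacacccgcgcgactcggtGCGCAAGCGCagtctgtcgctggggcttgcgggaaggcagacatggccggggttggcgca
The motif of Atp5g2 starts at -42 from the annotated start and those of Sdha at -98, -55 and -10. Atp5g3 and Atp5o have theirs at 13 and 10, within the transcribed part. The Atp5g3 window lies wholly inside the gene's span, chr2:73908447-73912464, so its start is not the outermost one of that gene.

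Complex I, which feeds electrons into the same chain, was called in the same directions as the members in ribosome-bound mRNA. Of its 36 listed subunits 7 fell and 0 rose in ENB against NSC (median -0.81), where 4.85% of all genes fell. In LNB against ENB 15 rose (0.74), where 6.81% of all genes rose, and in Neuron against LNB 7 rose (0.72), where 0.378% of all genes rose. The accessory subunit Ndufa2 fell by 1.52 (SE 0.28, adjusted p = 0.0057) in the first, and Ndufs4, a subunit needed to complete the electron-input module, rose by 1.21 (SE 0.23, adjusted p = 0.0019) in the second. In the Neuron immunoprecipitate against its control 32 of 36 rose, with a median of 1.40, where 11.6% of all genes rose. In total mRNA 2 fell in ENB against NSC, where 5.12% of all genes fell. In LNB against ENB 0 were called, where 3.77% of all genes were. In Neuron against LNB 3 rose, where 5.33% of all genes rose. The 3 included the core subunits Ndufv2 at 0.75 and Ndufv1 at 0.72.

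Of 17 genes of the citric acid cycle and pyruvate dehydrogenase, 4 fell and 0 rose in ENB against NSC total mRNA (median -0.42), where 5.12% of all genes fell, and 5 rose and 0 fell in Neuron against LNB (0.52), where 5.33% rose. Fh1, which encodes fumarase, fell by 1.32 (SE 0.35, adjusted p = 0.037) in ENB against NSC. Idh3a, the catalytic subunit of NAD-dependent isocitrate dehydrogenase, rose by 1.27 (SE 0.24, adjusted p = 0.0049) in Neuron against LNB. In ribosome-bound mRNA 0 were called in ENB against NSC (median -0.38), where 8.28% of all genes were called. In LNB against ENB 3 rose (0.63), where 6.81% of all genes rose. In Neuron against LNB 0 were called, where 4.13% of all genes were called. In the Neuron immunoprecipitate against the OB control 11 rose and 1 fell, where 11.6% of all genes rose. A difference between kinds of library was called for 0 of the 17 in each interaction. Over all genes 2.81%, 6.15% and 3.15% were called in these, in stage order, so few calls would be looked for among 17 genes. Assembly factors of complexes II to V gave 0 calls of 35 tested in ENB against NSC and in LNB against ENB ribosome-bound mRNA. Their medians were -0.39 and 0.23, and 8.28% and 12.9% of all genes were called. For Neuron against LNB 2 rose, where 0.378% of all genes rose. They were Uqcc2, a complex III assembly factor, by 0.95 (SE 0.22, adjusted p = 0.024) and Cox14, a complex IV one, by 0.92 (SE 0.23, adjusted p = 0.033).

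Summed over 14 regulators of respiratory genes, total mRNA means were 256.9 TPM in NSC, 254.2 TPM in ENB, 251.9 TPM in LNB and 223.6 TPM in neurons. Only called genes are named from this list and the next. Ppargc1a, the coactivator PGC-1alpha, fell in ENB against NSC total mRNA, where 5.12% of all genes fell. In LNB against ENB total mRNA it rose, where 2.80% of all genes rose. It had 1.41, 2.96 and 2.56 TPM in ENB, against 15.6, 18.7 and 27.0 TPM in NSC (log2 change -3.29, SE 0.57, adjusted p = 0.006). In LNB it had 16.3, 3.11 and 17.8 TPM, with 1 LNB library near the ENB level, and the log2 change in LNB against ENB was 2.62 (SE 0.56, adjusted p = 0.03). Nrf1 itself fell by 1.26 (SE 0.35, adjusted p = 0.032) in Neuron against LNB and by 1.63 (SE 0.35, adjusted p = 0.0062) in Neuron against NSC total mRNA. Stem cell markers, several of which astrocytes share, summed to 5328, 742 and 8219 TPM in LNB libraries 1, 2 and 3, low in the same library, and to 562 to 792 TPM in ENB. Their part in the LNB against ENB changes was not tested. Summed over 16 carriers and inner membrane genes, total mRNA means were 4515.4 TPM in NSC, 3217.2 TPM in ENB, 3734.2 TPM in LNB and 5824.9 TPM in neurons. Among them, Chchd10, a protein of the intermembrane space, fell by 4.17 (SE 0.63, adjusted p = 0.0031) in ENB against NSC total mRNA. It rose by 4.08 (SE 0.63, adjusted p = 0.0088) in LNB against ENB total mRNA. Chchd6, a cristae protein of the MICOS complex, fell by 1.22 (SE 0.24, adjusted p = 0.0098) in ENB against NSC and rose by 1.33 (SE 0.24, adjusted p = 0.0039) in Neuron against LNB.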

How the data were processed

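Poly(A) RNA of 27 libraries in 10 groups was amplified by Smart-seq2 with oligo(dT), made into Nextera XT libraries and sequenced on an Illumina HiSeq, per the labels' protocols. No molecular identifiers were used, so values carry amplification error. The authors deposited whole-number raw counts per gene, whose counting tool is not given in the sources used here, and expected counts and TPM per gene. RSEM 1.2.21, Bowtie2 2.2.6 and GRCm38 are named in the submitters' processing notes. The deposited TPM sum to the same total in every library, and the deposited expected counts, which share reads between similar genes, were rounded to whole numbers for an alternative fit.

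The members and lists were chosen with earlier results of these data known. Raw counts were fitted with edgeR 4.0.16 (R 4.3.3) by its quasi-likelihood test with TMM scaling and its filter on low counts, in separate fits of 12 total libraries (17592 genes), 15 immunoprecipitates (19066 genes) and 21 libraries of both kinds (19913 genes, for the interaction). p-values were adjusted by Benjamini-Hochberg over all genes, with a threshold of 0.05. The SE of a log2 change was its size over the root of F. All members called in a comparison are counted, and those with the largest changes are named, with the other members by range. The fits were tested on simulated data with 200 changed genes in ENB against NSC, at a set dispersion of 0.1. Of log2 changes of 1, 14% were called in total mRNA, 7% in ribosome-bound mRNA and 3% in the interaction. Of log2 changes of 2, 93%, 77% and 21% were called. The dispersion was the same for every simulated gene and was not taken from the members, so these shares are not the power for the members. In the data, 19 of 39 members were called in ENB against NSC ribosome-bound mRNA, at a median log2 change of -0.95. A member that was not called may still have changed. Alternatives were DESeq2 1.42.0, size factors, no filter, expected counts, a replicate block, a term for the second index, counts without ribosomal RNA genes, and fits without each library. The shared animals as a replicate block, and differences within an index among immunoprecipitates, were added after seeing the data. Same-numbered libraries deviated from their group means with correlations of -0.114 to 0.066 in total and -0.1 to 0.099 in immunoprecipitated libraries. Names show that LNB and ENB libraries share animals in 2 pairs of each kind, with correlations of 0.046 and 0.053 in total and 0.091 and -0.013 in ribosome-bound libraries. Promoter sequences are from RefSeq on GRCm38.p6. Depth limits genes of low count, and no value was left out.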

Additional observations from a re-analysis of the deposited data

Results flagged for a closer look

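For 8 member and step pairs the change between stages differed between ribosome-bound and total mRNA by the interaction test. In LNB against ENB the log2 interaction was 1.32 for Atp5l, 1.27 for Cox5a, 1.09 for Uqcrb and 0.85 for Atp5o. Over 11 fits that each left out 1 library, Cox5a remained called in 9, Uqcrb in 5, and Atp5l and Atp5o in 2 each. In Neuron against LNB it was 1.66 for Atp5l, 1.43 for Cox7c, 1.30 for Atp5j2 and 0.95 for Atp5j. Of 11 such fits Atp5l remained called in 7, Cox7c and Atp5j2 in 5 each, and Atp5j in 3. With the authors' expected counts the values in Neuron against LNB were 0.98 for Atp5l, 0.98 for Cox7c, 1.06 for Atp5j2 and 0.77 for Atp5j, with adjusted p of 0.094, 0.12, 0.067 and 0.095 by edgeR. Ribosome-bound libraries come from whole tissue and total libraries from sorted cells, so the source and the kind of mRNA cannot be told apart.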

How the results depend on the processing

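No called result changed direction under any alternative run. Counts of called members moved by over 1.5 times as follows. In total mRNA, ENB against NSC (2 called) gave 7 with DESeq2, 1 without the filter on low counts, 1 with expected counts and 0 with a term for the second index. Neuron against LNB (4) gave 8 with size factors and 9 with DESeq2, and Neuron against NSC (3) gave 5 and 7. In ribosome-bound mRNA, ENB against NSC (19) gave 12 with expected counts, LNB against ENB (19) gave 11 with size factors, and Neuron against LNB (3) gave 17 with DESeq2. The NSC immunoprecipitate against its control (6) gave 11 without the filter, 12 with DESeq2 and 3 with expected counts. That of ENB (7) gave 12 without the filter and 15 with DESeq2, and that of LNB (12) gave 1 with size factors. For the interaction, ENB against NSC (0) gave 4 with DESeq2 and 1 with expected counts, LNB against ENB (4) gave 2 with size factors, 2 without the filter and 11 with DESeq2, and Neuron against LNB (4) gave 0 without the filter, 7 with DESeq2 and 0 with expected counts. The causes were not tested.

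With the replicate number as a block, the counts were 0 for ENB against NSC total mRNA, 1 for Neuron against LNB ribosome-bound mRNA, 1 and 4 for the NSC and ENB immunoprecipitates against their controls, and 2 for the LNB against ENB interaction. Same-numbered ENB and LNB ribosome-bound libraries 1 and 2, which share animals by their names, had correlations of only 0.091 and -0.013. Such correlations thus cannot decide whether the number pairs libraries. The shared animals as a replicate block, chosen after seeing the data, gave 7 for LNB against ENB ribosome-bound mRNA, 1 for its interaction and 0 for total mRNA. The blocks moved no other count by over 1.5 times.

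Without 1 library the counts were 0 in each fit of ENB against NSC and of LNB against ENB total mRNA, 3 to 5 for Neuron against LNB and 1 to 3 for Neuron against NSC total mRNA. In ribosome-bound mRNA they were 0 to 7 for ENB against NSC, 5 to 14 for LNB against ENB and 0 to 6 for Neuron against LNB. Against the controls they were 0 to 17 for NSC, 0 to 8 for ENB, 0 to 8 for LNB and 26 to 37 for Neuron immunoprecipitates. For the interaction they were 0 to 1, 0 to 4 and 0 to 5 in stage order. Where such a fit leaves 1 library in a group, it is assumed to vary like the others. Calls over all genes moved in these fits as well. In ENB against NSC total mRNA they fell from 1772 to between 721 and 892. For the LNB immunoprecipitate against its control they fell from 1918 to between 95 and 1842. For that of NSC they rose from 2925 to 3372 without SVZ control library 1. Over single called members, 534 values kept their call and 112 lost it under the other alternatives, and 325 kept and 330 lost it without 1 library, with no change of direction. Within the same second index, an alternative added after seeing the data for immunoprecipitates, the median of the NSC immunoprecipitate against its control was 0.07, against 0.44 over all libraries. With the index term and with expected counts, 2 of the 3 calls of Neuron against NSC total mRNA were lost.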
